A study of Mus musculus with 2 samples.

Results

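The conjugation and glutathione enzymes described here are 67 of the 30038 genes named on a mouse whole-genome array. They were taken by gene name from 2 arrays of renal collecting duct cells. They comprise 20 cytosolic and mitochondrial glutathione S-transferases (Gst), 3 microsomal ones (Mgst), 7 glutathione peroxidases (Gpx), 15 UDP-glucuronosyltransferases and relatives (Ugt), 16 sulfotransferases (Sult), and 6 further genes: Gclc, Gclm, Gss, Gsr, Nqo1 and Hmox1. The naming rule uses no measured value and covers 86 probes. One array held cells of Gata2 CKO mice, whose genotype label reads Gata2flox/-::Pax8-rtTA::Tet-Cre: a floxed and a null allele of the transcription factor gene Gata2, with a Cre recombinase that doxycycline turns on where Pax8-rtTA is active. The other array held cells of mice labelled wild type (WT), for which no transgene is given. Induction by doxycycline lasted 4 weeks from an age of 4 weeks, so the mice were 8 weeks old, and both arrays carry the sex label Mixed. Pax8 is active in several segments of the renal tubule, and cells outside the tubules of the CKO mice also had the null allele, so deletion in the collecting duct cannot be told apart from loss elsewhere. Magnetic beads and DBA, a plant lectin for which collecting duct cells carry the sugar, were used to purify the cells. The study's design lists 3 mice for each genotype and the array names speak of mixtures, without saying that RNA of the 3 was pooled.

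Glutathione S-transferases join the tripeptide glutathione to reactive electrophiles, UDP-glucuronosyltransferases join glucuronic acid to drugs, bilirubin and steroids, and sulfotransferases join a sulfate group to phenols and steroids. Glutathione peroxidases use glutathione to reduce peroxides, and Gsr regenerates it from its oxidized form. Many of these genes are classic targets of the stress-responsive transcription factor Nrf2 or of nuclear receptors, and in the kidney the glucuronidating enzymes are known mainly from the proximal tubule.

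Each genotype had 1 array, so no difference has a replicate check and no test was possible. Each difference below is a log2 value, CKO minus WT, taken after the signals of each array were divided by its 75th percentile, which was 250.1 on the CKO array and 314.3 on the WT array. The error given with it is the scanner software's error for the spots alone. A probe counts as detected where the software marks it well above background, for which the lowest signal was 11.6 on the CKO array and 12.0 on the WT array. A gene is called measured where a probe of it was detected on at least 1 array. Over all 18870 measured genes the median difference was 0.05, with quartiles at −0.13 and 0.23. Different probes of a gene differed by a typical SD of 0.27. Scaling on 8 spike-in control transcripts instead lowers every difference by 0.54 and puts the median of all genes at −0.50, so directions below are relative to the bulk of genes. Gata2 itself had signals of 2424 (CKO) and 3943 (WT) at one probe, a difference of −0.37 ± 0.20, and 2194 (CKO) and 3432 (WT) at the other, −0.32 ± 0.20. Where the probes lie relative to the deleted part was not given in the sources used here. Of 12 principal cell markers all were measured, as were all 12 intercalated cell markers. In such RNA from many cells, fewer cells of a type and less RNA per cell cannot be told apart.

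Of the 67 members, 52 were measured (77.6%, against 62.8% of all genes). Detection reached 50 members on the CKO array and 52 on the WT array, and the 2 detected on the WT array alone were Ugt2b5 and Gstt4. With a signal above the 95th percentile of negative controls as the rule instead, 56 members passed on each array. By the software's mark, the families differed in how many members were detected. All 20 Gst, all 7 Gpx and all 6 synthesis and Nrf2 genes were measured, whereas 9 of 15 Ugt and 8 of 16 Sult genes were. The 15 members detected on neither array had signals of at most 6.29 (CKO) and 6.60 (WT), against negative control medians of 2.53 (CKO) and 2.67 (WT). They were Mgst2, the glucuronosyltransferases Ugt1a1, Ugt1a9, Ugt2a1, Ugt2a3, Ugt2b1 and Ugt2b35, the estrogen sulfotransferase Sult1e1, the hydroxysteroid sulfotransferases Sult2a3, Sult2a4, Sult2a5, Sult2a6 and Sult2a7, and Sult3a1 and Sult6b1. For these, transcripts were not detectable at this signal over background.

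Between genotypes, 0 members had a CKO signal 2-fold or more above WT, where 1.49% of all measured genes did. At least 2-fold lower were 3, against 2.85% of all measured genes, and all 3 were glucuronosyltransferases of the Ugt2b group: Ugt2b5, Ugt2b36 and Ugt2b38. The peroxidase Gpx3, at −0.96, lay just outside that size, and the next was Ugt3a1 at −0.88. In either direction 3 of 52 members passed, and 4.34% of all measured genes did. Of the 51 members with a value, 24 were above 0 and 27 below 0, while 56.9% of all measured genes were above 0 and 42.2% below. The median over members was −0.01.

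**Figure D1:**
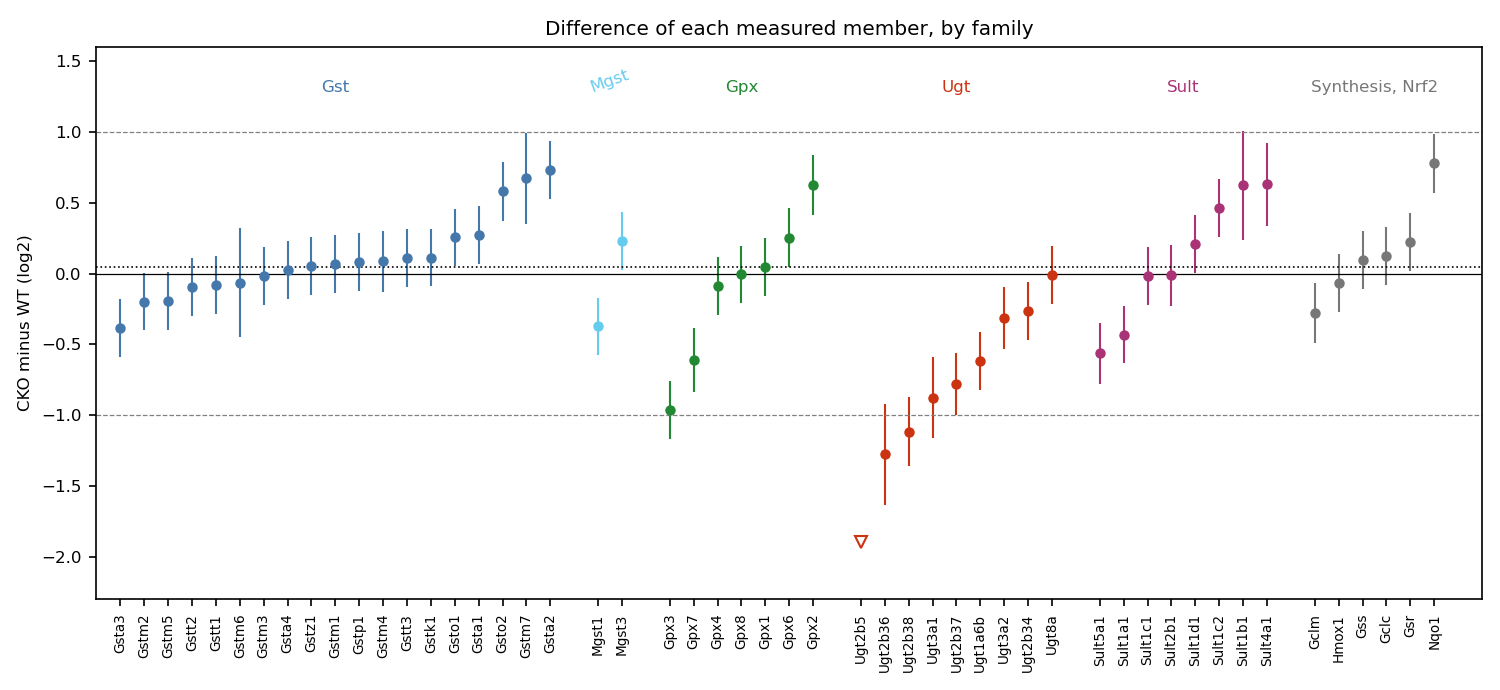
The CKO minus WT difference (log2, vertical axis) of each of the 51 members with a value, in order of size within each family. Points are genes, bars are the scanner software's spot error, the open triangle is the bound for Ugt2b5, the dotted line is the median of all genes (0.05) and dashed lines mark 2-fold; all 9 Ugt genes lie below 0, whereas the other families spread to both sides.

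All 9 measured Ugt genes, among them Ugt8a, Ugt3a1 and Ugt3a2, had values below 0, with a median of −0.78 and a range from −1.89 to −0.01. Ugt8a, at −0.01, was within its spot error of 0. Ugt2b5, detected on the WT array alone, enters as a bound that could only be below 0. The 8 genes detected on both arrays were all below 0, with a median of −0.70. Under none of the scaling alternatives did the Ugt median turn. The next lowest family median was −0.07, for Mgst. Relative to the median of all genes, the Ugt median was −0.83 with the 75th percentile. Spike-in scaling, which shifts all genes alike, leaves that value the same by construction. With the normexp background correction described below it was −0.40.

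The Ugt2b enzymes glucuronidate steroids, bile acids and many drugs, and 3 of them had the lowest values of the family. Ugt2b5 gave a signal of 5.80 on the CKO array, not well above background, and 53.99 on the WT array, so it was at least 3.72-fold lower. Ugt2b36 had 12.6 (CKO) and 38.4 (WT), a difference of −1.28 ± 0.36 or 2.42-fold lower. Ugt2b38 had 27.1 (CKO) and 73.9 (WT), a difference of −1.12 ± 0.24 or 2.17-fold lower. These 3 genes were thus dim on the CKO array, and Ugt2b36 stood only just above the lowest detected signal there. Ugt2b37 had 52.6 (CKO) and 113.8 (WT), −0.78 ± 0.22, and Ugt2b34 had 216.2 (CKO) and 326.9 (WT), −0.27 ± 0.20. Of the 7 Ugt2b genes on the array, 5 were therefore measured and all 5 were lower, by a median of −1.12. Ugt2b5 counts here through a bound, whose direction could only be lower since the gene was detected on the WT array alone. Those detected on both arrays ranged from −1.28 to −0.27. Among all 2979 measured genes whose mean signal lay within the range of the 3 that were at least 2-fold lower, the median difference was 0.10, and 5.2% were at least 2-fold lower, more than the 2.85% of all measured genes. The values of the 5 genes do depend on how background is handled. With a normexp correction, which adds an offset before the logarithm and pulls dim probes together, Ugt2b5 stood at −0.50, Ugt2b36 at −0.33, Ugt2b37 at −0.37 and Ugt2b38 at −0.38, still below 0 but within 2-fold.

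The probes of Ugt2b36 and Ugt2b38 are shown because their calls rest on 1 spot each and because the paralogs are close relatives. The probe of Ugt2b36 spans a splice junction at chr5:87495455-87509913, and that of Ugt2b38 lies at chr5:87850627-87850686, both on the minus strand of mm9.
Ugt2b36 probe: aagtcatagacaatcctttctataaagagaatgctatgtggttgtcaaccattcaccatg
Ugt2b38 probe: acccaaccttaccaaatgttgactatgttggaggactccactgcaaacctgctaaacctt
No Ugt2b probe shared a run of 15 or more bases with the probe of another Ugt gene. Binding to transcripts of paralogs was not analysed here.

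The Ugt2 genes lie side by side on chromosome 5, where the probes of 9 of them cover 573.5 kb (mm9). The detected genes on both sides lay near or above 0. Ythdc1, an RNA-binding protein gene just before the cluster, had a difference of −0.03. Beyond the other end, 49.5 kb away, the sulfotransferases begin. Sult1b1, known for sulfating thyroid hormones, had 17.9 (CKO) and 14.6 (WT), a difference of 0.62 ± 0.39. Sult1d1, which sulfates catecholamines in the mouse, had 795.4 (CKO) and 865.3 (WT), 0.21 ± 0.20. Both sulfotransferases thus read on the other side of 0 from the Ugt2b genes, but weakly. The Sult1b1 signals were close to the lowest detected ones, and a second Sult1b1 probe was detected on neither array. Sult1d1 differed by no more than about its spot error, and with spike-in scaling it falls below 0.

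The 250 bases before the start of the 3 genes that were at least 2-fold lower are shown because they share a stretch close to the start. They come from RefSeq on GRCm38.p6, minus strand, at chr5:87140341-87140590 for Ugt2b5, chr5:87092556-87092805 for Ugt2b36 and chr5:87424204-87424453 for Ugt2b38. Capitals mark the longest run that all 3 have in common, 22 bases that end 7 to 10 bases before the start.
Ugt2b5 promoter: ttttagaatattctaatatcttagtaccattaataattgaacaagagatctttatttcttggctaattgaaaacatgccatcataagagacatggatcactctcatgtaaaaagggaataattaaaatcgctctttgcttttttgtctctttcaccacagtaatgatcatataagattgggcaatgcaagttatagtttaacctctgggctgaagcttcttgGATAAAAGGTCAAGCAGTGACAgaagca
Ugt2b36 promoter: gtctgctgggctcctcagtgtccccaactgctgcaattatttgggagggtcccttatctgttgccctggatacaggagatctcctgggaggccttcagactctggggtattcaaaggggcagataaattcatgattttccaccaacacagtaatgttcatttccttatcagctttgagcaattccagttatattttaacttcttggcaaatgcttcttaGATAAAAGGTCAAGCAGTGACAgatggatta
Ugt2b38 promoter: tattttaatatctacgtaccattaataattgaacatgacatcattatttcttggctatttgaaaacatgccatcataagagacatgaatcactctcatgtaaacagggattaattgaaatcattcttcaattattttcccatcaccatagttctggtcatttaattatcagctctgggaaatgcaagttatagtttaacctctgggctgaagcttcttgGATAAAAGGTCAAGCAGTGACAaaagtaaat
Among 32851 mouse promoters of 300 bases, 250 before and 50 after the start, the run was found in 4, searched on both strands. They belong to Ugt2b5, Ugt2b36, Ugt2b37 and Ugt2b38. In the promoters of the other 3 Ugt2b genes the longest stretch of it was 5 bases in Ugt2b34, 6 in Ugt2b35 and 7 in Ugt2b1. The 4 genes with the run were the 4 with the lowest values among the measured Ugt2b genes, and the 3 without it were either closer to 0 or detected on neither array. The run was picked after these values were seen, the genes are close paralogs, and the match describes their sequence and says nothing of a factor that binds there.

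Motifs of factors named in connection with these genes were counted in the same windows, on both strands. The letters AGATAA, which factors such as Gata2 bind, were found in 11.2% of all promoters and in 12.5% of the 72 promoters of the 58 members that the table holds. Of the Ugt2b promoters 2 of 7 had it, those of Ugt2b35 and Ugt2b36, and Ugt2b36 had it at positions −197, −130 and −32 from the start. The last of these overlaps the shared run by all but its first base. TGACNNNGC, the core of the antioxidant response element that Nrf2 binds, was found in 12.4% of all promoters and in 6.94% of member promoters. Its 5 genes were Gclm, Gsta3, Gstm5, Gstm7 and Mgst1. GTTAAT, part of the site that HNF1 factors bind, was found in 7.1% of all promoters and in 15.3% of member promoters. It lay in 4 of 13 Ugt, 1 of 26 Gst and 6 of 16 Sult promoters, but in 0 of 7 Ugt2b promoters. Only these exact letters were counted, and variants of the site were not searched. The 11 genes with GTTAAT were Gsta3, Sult1a1, Sult1d1, Sult2a3, Sult2a4, Sult2a5, Sult2a6, Ugt1a1, Ugt1a9, Ugt2a3 and Ugt3a1. Binding of a factor to any of these motifs was not tested.

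**Figure D2:**
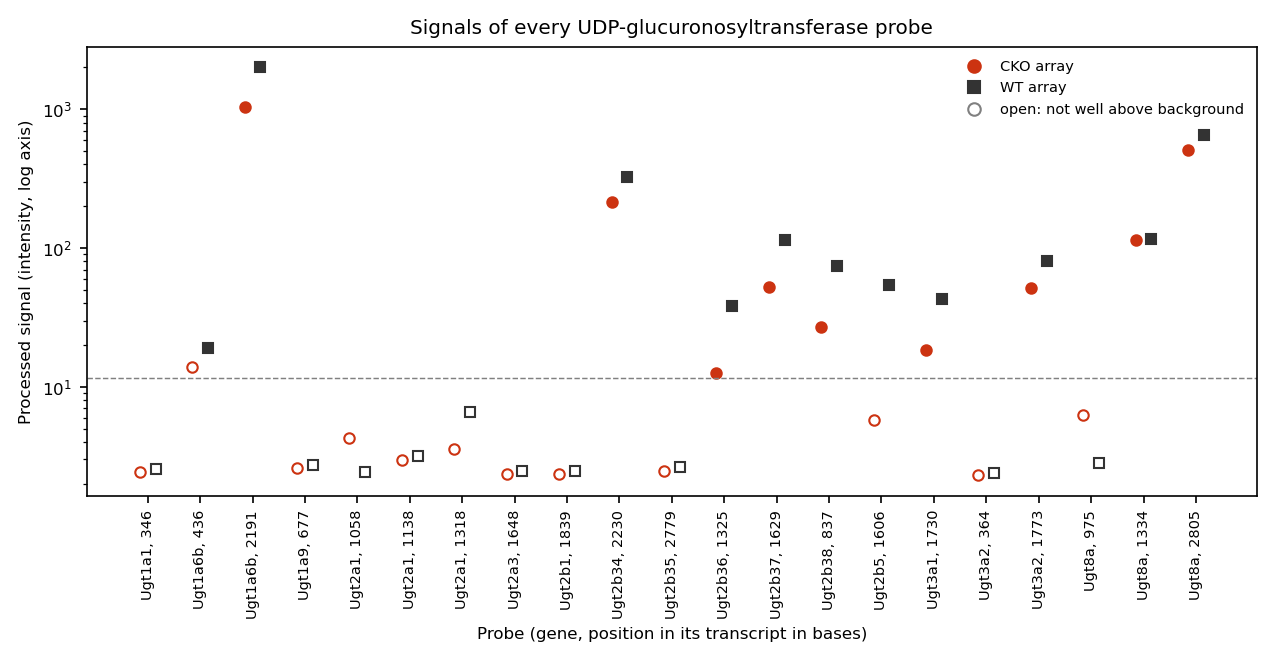
Processed signal (log axis) of each of the 21 Ugt probes on the CKO array (circles) and, to its right, on the WT array (squares), labelled by gene and position in the transcript in bases. Open symbols are not well above background, and the dashed line is the lowest signal well above background on the CKO array (11.6); Ugt2b36, Ugt2b37, Ugt2b38, Ugt3a1 and the probe of Ugt1a6b at position 2191 are detected on both arrays and lower on the CKO array.

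Outside the Ugt2b group, 4 of 8 Ugt genes were measured, with a median of −0.46. The Ugt1a enzymes, among them the one that conjugates bilirubin, are made from alternative first exons joined to shared last exons. The Ugt1a6b probe in the shared end, at position 2191 of its transcript, therefore reads any Ugt1a transcript. It had 1039 (CKO) and 2003 (WT), a difference of −0.62 ± 0.20. Probes in 3 first exons gave little signal. That of Ugt1a6b, at chr1:90003830-90003889 on the plus strand of mm9, had 13.9 (CKO, not well above background) and 19.0 (WT), which bounds its difference at −0.12, and those of Ugt1a1 and Ugt1a9 were detected on neither array. The Ugt1a6b probe is printed because it lies in a first exon and outside the shared end. Whether it also reads other Ugt1a transcripts was not analysed.
Ugt1a6b first exon probe: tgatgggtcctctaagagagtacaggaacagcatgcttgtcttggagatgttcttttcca
Which Ugt1a first exons make up the signal of the shared end was thus not resolved by these probes. Ugt3a1, whose human counterpart transfers N-acetylglucosamine, had 18.5 (CKO) and 42.7 (WT), −0.88 ± 0.29. Its neighbour Ugt3a2 had 51.9 (CKO) and 81.0 (WT), −0.31 ± 0.22, while a second Ugt3a2 probe was not detected. Ugt8a, which makes the galactosylceramides of myelin, had 511.7 (CKO) and 648.4 (WT), −0.01 ± 0.20, and its other detected probe read 0.30. Averaging those probes puts Ugt8a at 0.15, the 1 case in which an alternative took one of the 9 above 0.

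Markers of other cell types moved on the same arrays. Of 18 measured proximal tubule markers 16 were lower and 2 higher on the CKO array, with a median of −0.35, and their summed signal was 27.3 (CKO) and 41.3 (WT) times the 75th percentile. The endocytic receptor gene Lrp2 had 247.5 (CKO) and 928.1 (WT), −1.58, but its 4 measured probes ran from −1.58 to −0.26. Cyp4b1 had 91.4 (CKO) and 291.7 (WT), −1.34. Not all of the segment moved so: Slc22a6, the organic anion transporter, had 340.9 (CKO) and 311.7 (WT), 0.46, and Slc7a13 was detected on neither array. All 12 macrophage markers were lower, with a median of −0.82, a range from −1.47 to −0.56 and a summed signal of 63.6 (CKO) and 123.5 (WT). Intercalated cell markers went the other way, 11 of 12 higher with a median of 0.69, and of the 12 principal cell markers 9 were lower, with a median of −0.26. All 6 podocyte markers were lower (median −1.22), as were all 8 endothelial ones (−0.33), the 6 of fibroblasts and pericytes (−0.86) and 2 of red blood cells (−1.41). The podocyte marker Podxl, at −1.21, read 0.215 at its other probe. Slc13a3 of the proximal tubule, Cldn1 of podocytes, and Pecam1 and Cdh5 of endothelium were detected on the WT array alone. Their values are bounds that could only be below 0. Of the distal convoluted tubule 3 of 4 were lower (−0.54) and of the urothelium 2 of 3 (−0.67), while 5 of 6 of the thick ascending limb were higher (0.71). Sex-linked genes, of interest because several Ugt and Sult genes are known to differ between the sexes in mouse liver and kidney, ranged from −0.17 to 0.56, with Xist at 0.10, and were added after the values of the members were seen. The part of these cell types in the values of the Ugt genes was not tested.

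**Figure D3:**
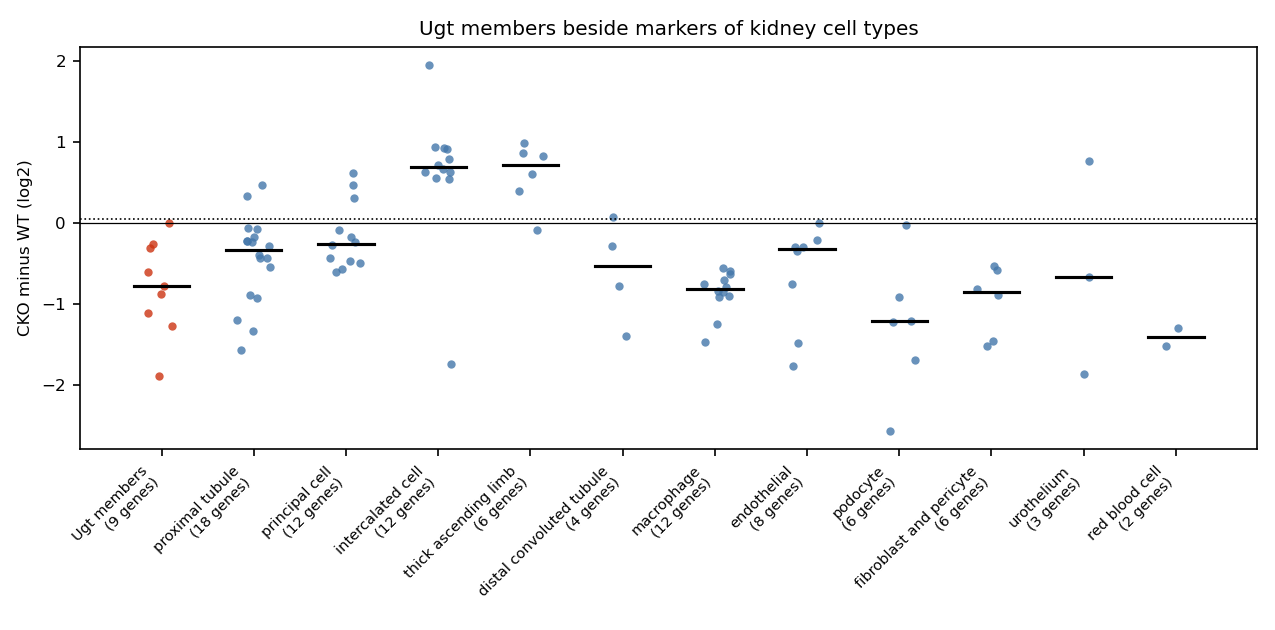
The CKO minus WT difference (log2, vertical axis) of the 9 measured Ugt genes, in red, and of the measured markers of 11 kidney cell types, in blue. Each point is a gene, black bars are medians and the dotted line is the median of all genes (0.05); the Ugt median of −0.78 is lower than the proximal tubule median of −0.35 and close to the macrophage median of −0.82.

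Glutathione S-transferases were centred near the median of all genes. Of the 19 with a value, 12 were above and 7 below 0, with a median of 0.07, and 0 were 2-fold apart. With spike-in scaling, which shifts all genes alike, the median was −0.47 and 3 were above 0. The remaining member, Gstt4, had 12.4 (CKO, not well above background) and 14.7 (WT) and is given no difference. The spot error was larger than the difference for 13 of the 19.

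The Mu class, a cluster of related enzymes that conjugate epoxides and other electrophiles, ranged from bright to dim probes. Gstm1 had 22600 (CKO) and 27120 (WT), 0.07 ± 0.20. Gstm2 had 30140 (CKO) and 43450 (WT), −0.20 ± 0.20, and Gstm3 had 10220 (CKO) and 13000 (WT), −0.02 ± 0.20. The values of Gstm4 (0.09), Gstm5 (−0.19) and Gstm6 (−0.06) lay in the same range. The dim Gstm7, with 25.5 (CKO) and 20.1 (WT), stood apart at 0.67 ± 0.32. The Pi class enzyme Gstp1 had 6158 (CKO) and 7315 (WT), with 0.08 and 0.07 at its probes. Theta class genes were at −0.08 (Gstt1), −0.10 (Gstt2) and 0.11 (Gstt3). Gstk1, the enzyme of mitochondria and peroxisomes, was at 0.11, and Gstz1, which acts in tyrosine breakdown, at 0.05.

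The Alpha class, which conjugates products of lipid peroxidation and drugs, was split. Gsta2 had 239.8 (CKO) and 181.6 (WT), a difference of 0.73 ± 0.21 or 1.66-fold higher. Gsta1 had 501.3 (CKO) and 521 (WT), 0.27 ± 0.20. Gsta3 had 4150 (CKO) and 6802 (WT), −0.38 ± 0.20, and its other probe read −0.67. Gsta4, specialised in the lipid peroxidation product hydroxynonenal, was printed as 10 spots, whose signals ran from 283.6 to 314.2 on the CKO array and from 323.1 to 391.6 on the WT array. Its differences over the 10 spots averaged 0.03 ± 0.07 (SD) and ran from −0.09 to 0.15, which shows how far repeated spots of a probe vary on these arrays. The probes of Gsta1 and Gsta2 overlap in the region of the gene they read, and they share 20 identical bases, in capitals, the longest run between any member probe and a probe of another gene. They lie at chr9:78083844-78087325 on the plus strand and chr9:78181644-78181703 on the minus strand of mm9.
Gsta1 probe: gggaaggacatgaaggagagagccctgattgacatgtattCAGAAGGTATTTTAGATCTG
Gsta2 probe: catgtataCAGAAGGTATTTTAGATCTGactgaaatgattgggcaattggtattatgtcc
With so close a pair, the values of Gsta1 and Gsta2 are uncertain as readings of single genes. Of the Omega class, which reduces dehydroascorbate, Gsto2 had 125.1 (CKO) and 105.2 (WT), 0.58 ± 0.21, and Gsto1 had 1411 (CKO) and 1486 (WT), 0.26 ± 0.20. Among microsomal transferases, Mgst1 had 3625 (CKO) and 5902 (WT), −0.37 ± 0.20, with −0.36 at its other probe. Mgst3 had 1261 (CKO) and 1350 (WT), 0.23 ± 0.20, and 0.34 at its other probe.

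Of the glutathione peroxidases, 3 were above and 4 below 0, with a median of −0.01. The secreted enzyme Gpx3, which the kidney supplies to plasma and which is known mainly from the proximal tubule, had 2552 (CKO) and 6257 (WT), a difference of −0.96 ± 0.20 or 1.95-fold lower. Its signal was far above background on both arrays, and its value was the lowest outside the Ugt family. With spike-in scaling it passed 2-fold. The proximal tubule markers given above moved with it, and their part in the result was not tested. The cytosolic enzyme Gpx1 had 7792 (CKO) and 9468 (WT), 0.05 ± 0.20. Gpx4, which reduces lipid hydroperoxides in membranes, had 5544 (CKO) and 7393 (WT), −0.09 ± 0.20. Both main intracellular enzymes thus stayed within the spot error of 0, in contrast to Gpx3. Gpx2, known from epithelia of the gut, had 124.4 (CKO) and 101.3 (WT), 0.63 ± 0.21. Of the enzymes of the endoplasmic reticulum, Gpx7 had 37.3 (CKO) and 71.6 (WT), −0.61 ± 0.23, and Gpx8 was at −0.01. Gpx6 was at 0.25.

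Sulfotransferases were divided evenly, 4 above and 4 below 0 of the 8 measured, with a median of 0.10 that turned to −0.45 with spike-in scaling. Sult1a1, the main phenol sulfotransferase, had 941.2 (CKO) and 1595 (WT), −0.43 ± 0.20. Sult1c2 had 713.4 (CKO) and 651.3 (WT), 0.46 ± 0.20. Sult5a1 had 56.4 (CKO) and 104.8 (WT), −0.57 ± 0.22, and Sult4a1, known from brain, had 25.8 (CKO) and 20.9 (WT), 0.63 ± 0.29. Sult1c1 (−0.02) and the cholesterol sulfotransferase Sult2b1 (−0.01) lay near 0. Unlike the Ugt family, the sulfotransferases thus had no common direction.

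The enzymes that make and regenerate glutathione were close to the median of all genes. Gclc, the catalytic subunit of the rate-limiting enzyme of glutathione synthesis, had 4879 (CKO) and 5635 (WT), 0.12 ± 0.20. Its modifier subunit Gclm had 95.3 (CKO) and 145.3 (WT), −0.28 ± 0.21, and −0.01 at its other probe. Gss, which completes the tripeptide, had 205.3 (CKO) and 241.4 (WT), 0.10 ± 0.20, and Gsr had 849.2 (CKO) and 913 (WT), 0.23 ± 0.20, with all 3 of its probes above 0. The catalytic subunit was thus 1.09-fold higher and the modifier subunit 1.21-fold lower.

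Nqo1, the quinone reductase most often used as a readout of Nrf2, had the highest difference of all members. It had 191.2 (CKO) and 140.2 (WT), 0.78 ± 0.21 or 1.71-fold higher. Hmox1, the heme-degrading enzyme, had 478.7 (CKO) and 629.4 (WT), −0.07 ± 0.20. Among 27 measured Nrf2 regulators and other Nrf2 targets 12 were above and 15 below 0, with a median of −0.04, 0 past 2-fold upwards and 1 past it downwards. That one was Cbr3, a carbonyl reductase, with 411.1 (CKO) and 1078 (WT), −1.06, while its relative Cbr1 had 2311 (CKO) and 1498 (WT), 0.96. The gene of Nrf2 itself, Nfe2l2, was at −0.18 and that of its inhibitor Keap1 at −0.10. Some other classic targets lay close by, with Txnrd1 at 0.08, Srxn1 at −0.10, G6pdx at −0.04 and Prdx1 at 0.13. The 3 measured probes of Srxn1 ran from −0.10 to 0.40. Others of the list lay further from 0, such as Me1 at 0.53, Abcc1 at 0.51 and Maff at −0.49. The median of the list thus lay near 0, with members such as Cbr1 and Cbr3 well to either side of it.

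Genes around the conjugation enzymes were described by lists. Of 29 measured genes of glutathione turnover and thiol partners 19 were above and 10 below 0, with a median of 0.09. The glutaredoxin Glrx had 368.3 (CKO) and 195.8 (WT), 1.24 ± 0.20. Slc1a1, a carrier of glutamate and cysteine, had 32.1 (CKO) and 101.5 (WT), −1.33 ± 0.23, and Ggt7 had 23.1 (CKO) and 63.5 (WT), −1.13 ± 0.27. Ggt1, which breaks down glutathione at the brush border and is also on the proximal tubule list, was at −0.44. Of 24 measured genes of cofactor supply, conjugate cleavage and transport 13 were above and 11 below 0, with a median of 0.02. Ugdh, which makes the glucuronic acid donor that Ugt enzymes use, had 1052 (CKO) and 1302 (WT), 0.02 ± 0.20, and Papss1, which makes the sulfate donor, had 1769 (CKO) and 2055 (WT), 0.11 ± 0.20. Its relative Papss2 was detected on neither array. Both detected donor enzymes were thus within the spot error of 0. The sulfate carrier Slc13a1 had 19.0 (CKO) and 87.4 (WT), −1.87 ± 0.29, and the efflux pump Abcg2 had 98.8 (CKO) and 274.9 (WT), −1.15 ± 0.21. The pumps Abcc1 (0.51), Abcc3 (0.41) and Abcc4 (0.33) were above 0, and Abcc5 was at 0.02, with 0.545 as the highest of its 3 probes. Abcc2 had 9.77 (CKO, not well above background) and 15.2 (WT), which bounds its difference at −0.07.

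The Ugt median was the lowest of the 6 groups under every processing choice tried, with its size depending on the treatment of dim probes. Relative to the median of all genes, the Ugt median lay between −0.85 and −0.40 over the settings, the value nearest to 0 coming from normexp. Medians of the Gst, Gpx, Sult and synthesis groups stayed between −0.15 and 0.12 of that of all genes.

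**Figure D4:**
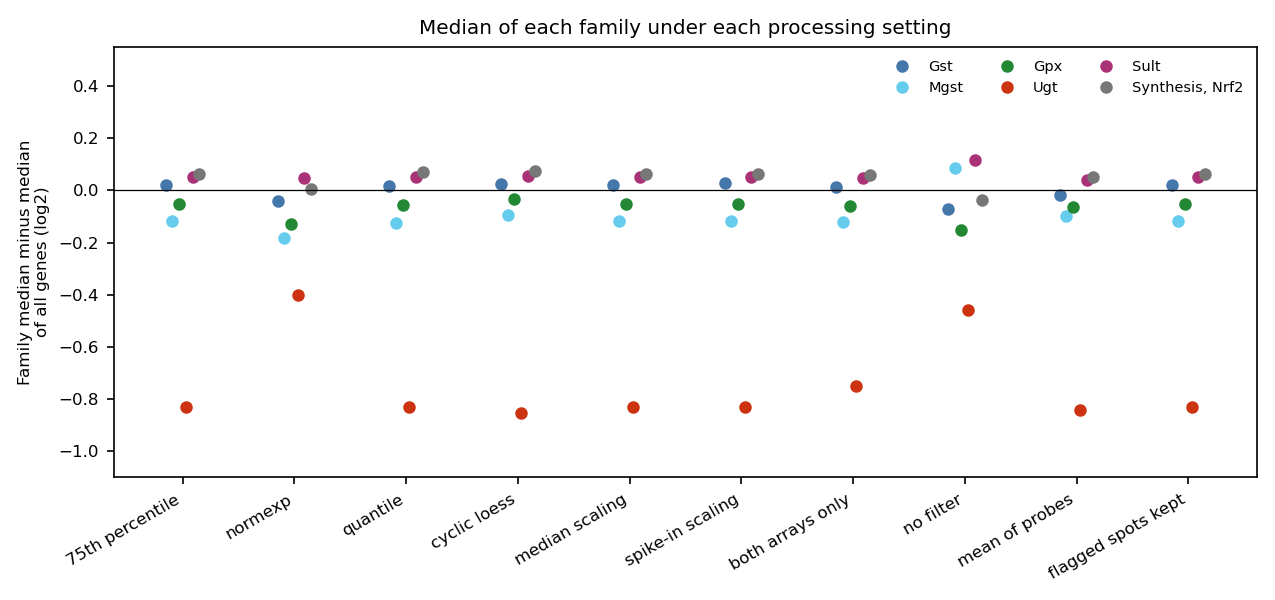
Median CKO minus WT difference of each family less the median of all genes (log2, vertical axis) under each processing setting (horizontal axis), coloured by family. The Ugt median is the lowest in every setting shown, at −0.83 with the 75th percentile and −0.40 with normexp, and the other families lie within 0.2 of 0.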

How the data were processed

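Total RNA (50 ng per array) was amplified and labelled with Cy3, per the labels' protocols. The files that the authors deposited hold each spot's intensity, not yet on a log scale. Per the file headers they were made with Agilent Feature Extraction 10.7.3.1, which subtracts background, and probes are placed on mm9. The authors' normalization between arrays was not given in the sources used here. Both arrays lay on 1 slide and were read in 1 scan. Each had 45018 spots, 43379 of them not controls, with 0 saturated. Of the spots 62.4% (CKO) and 64.1% (WT) were well above background. Flagged spots, 73 (CKO) and 66 (WT), were left out, 0 of them among the members.

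The processed signal was divided by the 75th percentile of its array and put on the log2 scale, with spots of a probe averaged. A gene was read by the probe with the strongest mean signal of those detected on either array. Where a probe was detected on 1 array alone, its difference is a bound against the higher of the lowest detected signal and the dim probe's own, and medians and counts include such bounds. A bound that did not pass 0 gave no value, so the direction of a bound is set by the array on which the probe was detected. Signals of different probes do not rank transcript abundance. No test was run, since each genotype had 1 array, and genes were counted at 2-fold. Spot errors cover the measurement alone, and leave out mice, cell purification and labelling; the precision is limited by having 2 arrays.

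The members and gene lists were chosen with earlier results of these data known. Every member is accounted for. Signals are given for members at least 2-fold apart, the 3 of strongest signal per family, those detected on 1 array, those whose probes disagree and the 6 synthesis and Nrf2 genes. Of the other lists, genes at least 2-fold apart and Ugdh, Papss1 and Papss2 were named. Further genes and signals were picked after their values were seen. Of 86 member probes, 80 had their accession in RefSeq's GRCm38.p6 table and 0 changed name. Promoters are from RefSeq on that build. The steps were tested on simulated data. The planted changes were in bright genes only and did not cover genes as dim as Ugt2b5, Ugt2b36 and Ugt2b38. Alternatives were normexp with an offset of 50, quantile, cyclic loess, median and spike-in scaling, other filters and probe means. R 4.3.3, limma 3.58.1, Python 3.11.15, numpy 2.4.6, pandas 2.3.3 and matplotlib 3.10.9 were used. Some genes that these rules take are not reported here.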

Additional observations from a re-analysis of the deposited data

How the results depend on the processing

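Scaling on spike-in transcripts moved the family medians to −1.33 for Ugt, −0.61 for Mgst, −0.55 for Gpx, −0.47 for Gst, −0.45 for Sult and −0.43 for the synthesis and Nrf2 genes, and the members at least 2-fold lower to 9; by construction it shifts all genes alike. Those 9 were Gpx3, Gpx7, Sult5a1, Ugt1a6b, Ugt2b36, Ugt2b37, Ugt2b38, Ugt2b5 and Ugt3a1. With normexp the Ugt median was −0.33 and 0 members were at least 2-fold lower; by construction its offset of 50 draws dim probes towards 0. Without a filter on dim probes the Ugt median over all 15 genes was −0.31 and the Mgst median over all 3 was 0.23, since undetected probes enter. Under quantile, loess, median scaling, probe means, both-array filtering and kept flags, the family medians moved by less than the spread between probes of a gene. The members at least 2-fold lower stayed at 3 there, except that both-array filtering left 2, since it drops Ugt2b5. Of the single members, 9 moved by more with normexp, among them Gstm6, which turned to 0.27, and 1 without the filter, Ugt2b5 at its measured −2.89. All 9 Ugt genes stayed below 0 in each scaling and with normexp. Using measured differences in place of bounds, chosen after seeing the data, left the 3 members at least 2-fold lower.

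Over all genes, those at least 2-fold higher and lower numbered 281 and 538, against 65 and 204 with normexp, 60 and 1629 with spike-in scaling, 206 and 642 with loess, 1206 and 1242 without the filter, and 389 and 808 with measured differences in place of bounds. No paired analysis was possible because each genotype has 1 array. Signal over background limits Ugt2b5 and Ugt2b36 most, since their CKO signals lay below or just above the lowest detected level.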

Other observations

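A list of nuclear receptors and other factors of drug metabolism also holds the enzymes Por, Cyp1a1 and Cyp1b1 and the target gene Tiparp, all below 0. Of its 14 measured genes 11 were below and 3 above 0, with a median of −0.22, and 2, Hnf4a and Cyp1b1, were at least 2-fold lower. On the same arrays 16 of 18 proximal tubule markers, 12 of 12 macrophage markers and 6 of 6 markers of fibroblasts and pericytes were lower, and their part in these values was not tested. Hnf4a, a factor of liver and proximal tubule, had a signal of 11.6 on the CKO array, not well above background, and 43.0 on the WT array, which bounds its difference at −1.56. Cyp1b1, a cytochrome known as a target of the aryl hydrocarbon receptor, had 16.5 (CKO) and 197.2 (WT), −3.25, and Cyp1a1 had 47.9 (CKO) and 113.7 (WT), −0.92. The receptor gene Ahr was at −0.13 and another of its targets, Tiparp, at −0.04. The xenobiotic receptor Nr1i2 was detected on neither array, while Nr1i3 had 933.6 (CKO) and 896.7 (WT), 0.39.

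Enzymes of the same families that the array lists under older names were outside the choice by name. Sult2a8, listed as 2810007J24Rik, had 174.6 (CKO) and 205.7 (WT), 0.09 ± 0.21, although the 5 Sult2a genes listed by name were detected on neither array. Gstp3 and Sult3a2 were detected on neither array.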
